A study of Mus musculus with 87 samples.

Results

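Col4a1, Col4a2, Lamb1, Lamc1 and Sparc encode secreted proteins of the basement membrane, and parietal endoderm is known for making large amounts of all of them. They were found in the RNA count files by Ensembl ID (ENSMUSG00000031502, ENSMUSG00000031503, ENSMUSG00000002900, ENSMUSG00000026478 and ENSMUSG00000018593), 5 of 55450 IDs counted. All 5 passed the filter on low counts, as did 14650 IDs in all. Peaks of SUZ12, JARID2 and PCL2 within 1 kb of each gene were also taken from 3 deposited lists.

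The basement membrane is a sheet of extracellular matrix under epithelia. Its collagen network is built from type IV collagen trimers, of which the chains made by Col4a1 and Col4a2 are the common form. Its laminin network is built from trimers of an alpha, a beta and a gamma chain, and Lamb1 and Lamc1 encode the beta-1 and the gamma-1 chain. Sparc encodes a calcium-binding glycoprotein that binds collagens, type IV among them. Polycomb repressive complex 2 (PRC2) methylates histone H3 at lysine 27 and is known for keeping developmental genes silent in embryonic stem (ES) cells. SUZ12 is a core subunit that the complex needs, and PCL1 to PCL3, JARID2, AEBP2 and EPOP are non-core subunits that bind the core.

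The RNA came from mouse ES cells in which genes of PRC2 subunits had been knocked out (KO), with 3 libraries for each of 8 genotypes. The core subunit gene Suz12 was knocked out in Suz12 KO. The genes of PCL1 to PCL3, a trio of Polycomb-like (PCL) proteins, were knocked out in Pcl1-3 KO, together with Epop in Pcl1-3 + Epop KO, with Jarid2 in Pcl1-3 + Jarid2 KO, and with both Jarid2 and Aebp2 in Pcl1-3 + Jarid2 + Aebp2 KO. Jarid2 + Aebp2 KO kept the PCL proteins. All 6 non-core subunits studied were removed in Pcl1-3 + Jarid2 + Aebp2 + Epop KO, called the full non-core KO below. Wild type (WT) was the control. All were kept on gelatin in 2i medium, and total RNA was made into TruSeq libraries of 10148155 to 28442061 counts. The strain label of the RNA samples changes with the genotype, a different last digit for each, so that strain and genotype cannot be told apart as labelled. The digit rises from each genotype to the next. Whether it marks truly different strains or is a slip in filling in the labels is not known. Nothing in the labels says whether the libraries of a genotype were separate cultures or clones, so a p-value here is set by the spread among these libraries, possibly technical, and by nothing wider. The count files name genes by ID alone, and markers of ES cells, of parietal endoderm and of other cell types, like the targeted PRC2 genes themselves, were not analysed here in the RNA. In such bulk samples, fewer cells of a type and less RNA per cell cannot be told apart.

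Col4a1 and Col4a2 lie head to head on chromosome 8, and their promoter windows overlap. In the mm10 build Col4a1 spans 11198423 to 11312889 on the minus strand and Col4a2 spans 11312805 to 11449287 on the plus strand, so the gene spans overlap by 85 bp and the transcription start sites are 21 bp apart. Lamb1 spans 31265146 to 31329644 on the plus strand of chromosome 12. Sparc spans 55394159 to 55420080 on the minus strand of chromosome 11, and Lamc1 spans 153218922 to 153332786 on chromosome 1. Promoter windows of 300 bases, 250 before the start site and 50 after it, are given 5′ to 3′ from RefSeq (GRCm38.p6, the coordinates of mm10) because the genes differed in their peaks at these starts. Capitals mark CG dinucleotides, the sequence feature in which the windows differ most plainly.
Col4a1 (chr8:11312777-11313076, minus strand): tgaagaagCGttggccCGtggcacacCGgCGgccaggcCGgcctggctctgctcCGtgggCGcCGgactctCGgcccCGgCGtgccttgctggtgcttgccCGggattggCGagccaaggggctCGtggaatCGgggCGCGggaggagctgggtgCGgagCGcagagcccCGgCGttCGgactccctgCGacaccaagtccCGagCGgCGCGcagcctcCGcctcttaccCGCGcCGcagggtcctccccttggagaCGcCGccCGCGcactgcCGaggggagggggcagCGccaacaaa
Col4a2 (chr8:11312555-11312854, plus strand): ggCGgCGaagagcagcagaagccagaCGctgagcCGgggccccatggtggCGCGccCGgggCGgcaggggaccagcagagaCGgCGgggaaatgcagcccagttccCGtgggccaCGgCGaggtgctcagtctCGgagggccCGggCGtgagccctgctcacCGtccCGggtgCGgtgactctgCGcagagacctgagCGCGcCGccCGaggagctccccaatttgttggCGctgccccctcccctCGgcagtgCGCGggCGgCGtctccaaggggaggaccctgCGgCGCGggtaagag
Lamb1 (chr12:31265043-31265342, plus strand): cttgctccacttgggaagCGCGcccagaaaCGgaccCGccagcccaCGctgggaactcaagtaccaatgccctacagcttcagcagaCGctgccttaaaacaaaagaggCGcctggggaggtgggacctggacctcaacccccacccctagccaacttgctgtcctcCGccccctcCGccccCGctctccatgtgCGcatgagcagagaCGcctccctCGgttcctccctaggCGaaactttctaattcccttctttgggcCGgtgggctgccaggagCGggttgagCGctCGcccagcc
Sparc (chr11:55420031-55420330, minus strand): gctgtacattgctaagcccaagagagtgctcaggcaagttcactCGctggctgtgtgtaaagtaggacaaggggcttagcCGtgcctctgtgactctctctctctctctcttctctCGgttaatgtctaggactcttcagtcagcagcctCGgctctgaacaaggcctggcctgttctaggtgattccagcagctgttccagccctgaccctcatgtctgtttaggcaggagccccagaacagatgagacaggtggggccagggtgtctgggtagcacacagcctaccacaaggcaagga

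The collagen windows were dense in CG dinucleotides and the Sparc window was not. The Col4a1 window held 37 of them and the Col4a2 window 33, and the last 78 bases at the start-site end of these windows are the same stretch of chromosome 8 read on opposite strands. Lamb1 held 18 and Sparc 4. Of 32851 windows in the table, whose median was 7, 5.58% held at least as many as Col4a1, 8.56% as many as Col4a2, 29.7% as many as Lamb1 and 68.6% as many as Sparc. The G and C content was 74.0% in the Col4a1 window, 73.7% in the Col4a2 window, 63.7% in the Lamb1 window and 55.3% in the Sparc window. In all, 4 short motifs were searched on both strands, and no match overlapped a match of another motif. The GC box GGGCGG, bound by Sp factors, had 1 match in the Col4a1 window, 3 in that of Col4a2 and 2 in that of Lamb1, and 35.7% of all windows hold it. The CCAAT box had 1 match in each of those 3 windows, and 37.4% of all windows hold it. The GATA motif AGATAA, held by 11.2% of all windows, matched none of the 4. The AP-1 motif TGANTCA, held by 7.81%, likewise matched none, and the Sparc window matched no motif. A match in the stretch that the collagen windows share counts for both genes.

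The collagen pair and Lamb1 lay under broad peaks of all 3 PRC2 proteins at their starts, Lamc1 under a shorter PCL2 peak alone, and Sparc had no peak within 1 kb. The peak lists name no sample, so the genotype of the cells behind these peaks is not known. A single peak in each list covered both collagen start sites. For SUZ12 it ran over 11311012 to 11314282 on chromosome 8 (3271 bp), for JARID2 over 11311227 to 11314351 (3125 bp) and for PCL2 over 11310903 to 11314401 (3499 bp). These were wider than 89.7% of SUZ12 peaks, 90.9% of JARID2 peaks and 96.6% of PCL2 peaks. At Lamb1 the SUZ12 peak ran over 31264494 to 31267120 on chromosome 12 (2627 bp, wider than 82.9% of the list), the JARID2 peak over 31264593 to 31267233 (2641 bp, wider than 87.1%) and the PCL2 peak over 31264167 to 31267314 (3148 bp, wider than 95.6%). The Lamc1 peak ran over 153332261 to 153333026 on chromosome 1, 766 bp across an annotated end of the gene, wider than 52.8% of PCL2 peaks.

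**Figure D1:**
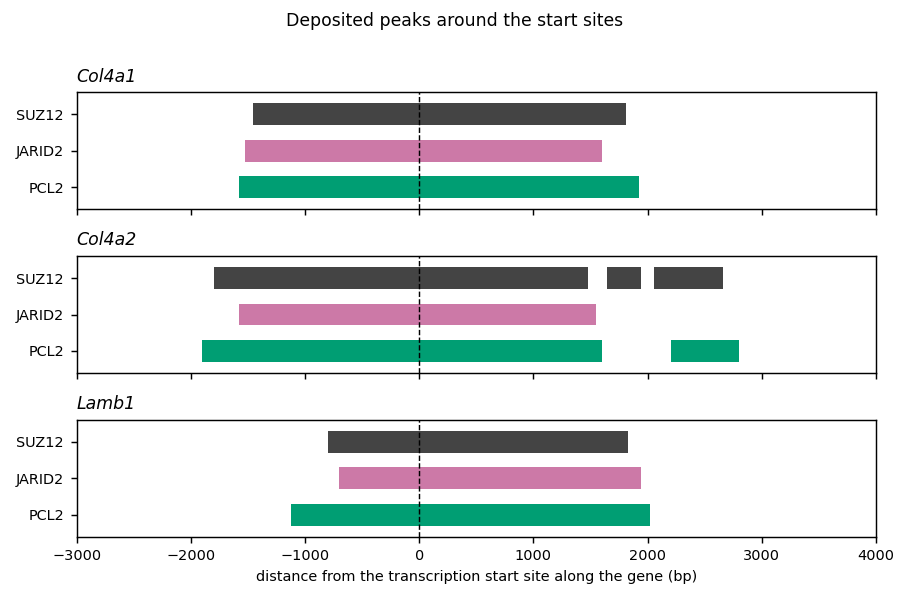
Deposited peaks of SUZ12, JARID2 and PCL2 around the start sites of Col4a1, Col4a2 and Lamb1, drawn as bars against the distance from the start site along each gene (bp); Lamc1 and Sparc are not drawn. Each of the 3 starts lies inside a peak of every protein, and the collagen panels show the same peak from both sides, with smaller SUZ12 and PCL2 peaks downstream in Col4a2.

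Smaller peaks without JARID2 lay inside the collagen genes. Col4a1 had a SUZ12 peak of 976 bp and PCL2 peaks of 1206 and 1394 bp in its body. Col4a2 had SUZ12 peaks of 294, 604 and 1565 bp and PCL2 peaks of 591, 790, 618 and 1772 bp. SUZ12 and JARID2 peaks thus lay near 3 of the 5 genes each, against 24.2% and 14.3% of 21887 protein-coding genes, and PCL2 peaks near 4 of 5, against 42.0%. Long genes have more room for a peak, and of 8391 genes at least as long as Sparc, the shortest of the 5, 35.3% had a SUZ12 peak, 21.5% a JARID2 peak and 58.9% a PCL2 peak. Sparc spans 25922 bp, but the genes with peaks span 64499 to 136483 bp. The shares among genes of that length were not worked out. The peak lists hold positions only, with no height and no replicates, so these are counts without a test. The collagen genes share their start-site peaks, so the 5 genes are not 5 separate loci. Promoter windows under a SUZ12 peak held a median of 23 CG dinucleotides, against 6 in windows without one.

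Levels are given as CPM, read counts relative to library size after edgeR's TMM scaling between libraries, with means ± SD over 3 libraries. CPM carry no correction for gene length and are compared within a gene only. A difference was called when the Benjamini-Hochberg adjusted p of edgeR's quasi-likelihood test, over the 14650 IDs, was under 0.05. The 7 comparisons with WT share its 3 libraries.

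In Suz12 KO all 5 genes were called, the 3 with SUZ12 peaks higher and the 2 without lower than in WT. The share called among all IDs was 39.1%, in either direction and whether or not a gene had a peak. The collagen genes share a start-site peak. How often other genes with or without a SUZ12 peak rose or fell was not worked out, so the split by peak was not tested. Col4a1 stood at 46.3, 40.3 and 71.6 CPM in Suz12 KO libraries, against 9.06, 7.24 and 9.39 CPM in WT. Every Suz12 KO library lay above every WT library, and replicate 3 was well above the others. The fold change was 6.14, or 2.62 ± 0.22 on the log2 scale (SE; edgeR adjusted p = 2.55e-08). Col4a2, its partner chain, was measured at 19.5, 16.4 and 37.1 CPM in Suz12 KO and at 3.41, 3.37 and 2.26 CPM in WT. The same library, Suz12 KO replicate 3, was again the highest. The WT values rest on 31 to 35 reads per library, and the fold change was 8.13 (log2 3.02 ± 0.31, edgeR adjusted p = 2.98e-07).

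Lamb1 also rose in Suz12 KO, with a smaller fold change. Its levels were 78.0, 66.2 and 79.7 CPM in Suz12 KO and 59.8, 39.8 and 38.1 CPM in WT. The groups did not overlap, but WT replicate 1 came close to the lowest Suz12 KO library. The fold change was 1.63 (log2 0.70 ± 0.22, edgeR adjusted p = 0.0132). The call was lost without WT replicate 2 (log2 0.60, edgeR adjusted p = 0.0655) or without WT replicate 3 (log2 0.59, edgeR adjusted p = 0.0735). Lamc1, the gamma-1 partner of the Lamb1 chain, moved the other way, with 443, 425 and 434 CPM in Suz12 KO against 736, 665 and 780 CPM in WT. It was 1.67-fold lower (log2 -0.74 ± 0.12, edgeR adjusted p = 6.86e-05). Sparc had 519, 532 and 513 CPM in Suz12 KO and 813, 973 and 953 CPM in WT, 1.75-fold lower (log2 -0.81 ± 0.12, edgeR adjusted p = 1.63e-05). The 3 Suz12 KO libraries of Lamc1 and of Sparc lay close together and below every WT library. TMM factors of the Suz12 KO libraries, 1.07 to 1.09, were at the top of the range of 0.946 to 1.09 over all libraries. Both genes were also called lower with size factors by relative log expression (RLE). RLE, like TMM, takes most genes as unchanged, so it could not show a shift shared by most genes.

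In the full non-core KO the collagen genes were higher than in WT, as in Suz12 KO, both laminin genes were lower and Sparc was not called. With 4 of 5 genes called, the share among all IDs was 32.9%. Col4a1 reached 32.7, 38.9 and 31.6 CPM in the full non-core KO, against 9.06, 7.24 and 9.39 CPM in WT. That is 4.01-fold higher (log2 2.00 ± 0.22, edgeR adjusted p = 6.34e-07). Col4a2 had 13.9, 12.9 and 15.2 CPM in the full non-core KO, which was 4.67-fold above the WT libraries (log2 2.22 ± 0.31, edgeR adjusted p = 1.42e-05). Unlike in Suz12 KO, the 3 libraries of the full non-core KO were close together for both collagen genes.

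Lamb1, which like the collagen genes had a start-site peak, was lower in the full non-core KO than in WT. It had 14.0, 11.4 and 14.0 CPM in the full non-core KO and 59.8, 39.8 and 38.1 CPM in WT. The fold was 3.49 (log2 -1.80 ± 0.23, edgeR adjusted p = 4.42e-06), and no libraries overlapped. Lamc1 was measured at 607, 536 and 388 CPM in the full non-core KO and averaged 727 ± 58.1 CPM in WT, 1.42-fold lower (log2 -0.51 ± 0.12, edgeR adjusted p = 0.00303). Its replicate 3 was the lowest Lamc1 library of all 24. Sparc averaged 861 ± 136 CPM in the full non-core KO and 913 ± 87.5 CPM in WT, with overlapping libraries (log2 -0.08 ± 0.12, edgeR adjusted p = 0.61).

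**Figure D2:**
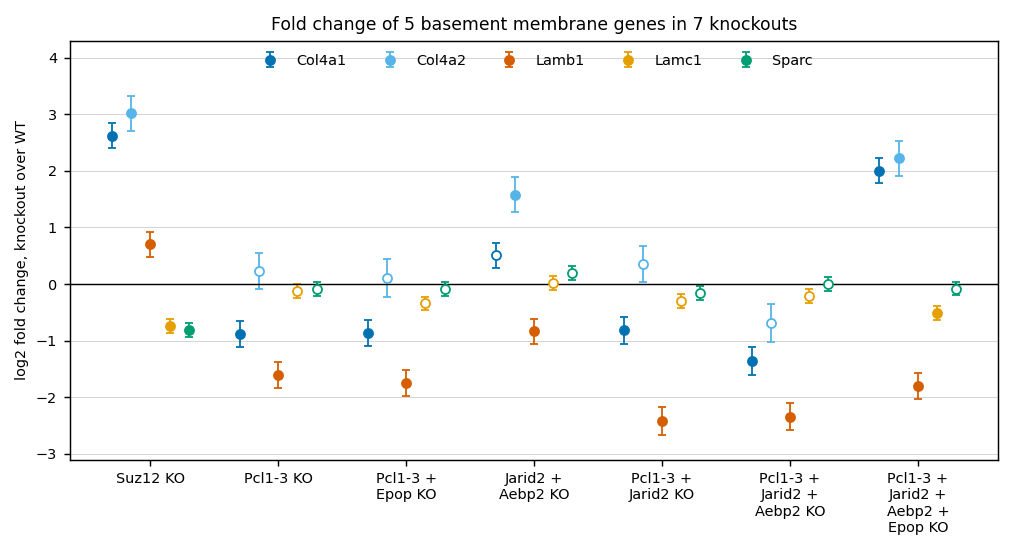
Log2 fold change of each gene in the 7 knockouts, knockout over WT, from edgeR; bars are SE, filled points passed the adjusted p of 0.05 and open points did not. Col4a1 and Col4a2 stand highest in Suz12 KO, at 2.62 and 3.02, and in the full non-core KO, at 2.00 and 2.22; Lamb1 is above WT in Suz12 KO alone, at 0.70, and between -0.83 and -2.42 in the other 6 knockouts.

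Set directly against Suz12 KO, the full non-core KO had less of 3 of the genes and more Sparc. Here 4 of 5 were called, with 43.0% of all IDs. Lamb1 differed most, averaging 13.2 ± 1.49 CPM in the full non-core KO and 74.6 ± 7.35 CPM in Suz12 KO (5.67-fold lower, log2 -2.50 ± 0.23, edgeR adjusted p = 4.2e-08). Sparc was 1.65-fold higher in the full non-core KO, at 861 ± 136 CPM, against 521 ± 9.50 CPM in Suz12 KO (log2 0.72 ± 0.12, edgeR adjusted p = 4.41e-05). Col4a1 was 1.53-fold lower (log2 -0.62 ± 0.20, edgeR adjusted p = 0.0178) and Col4a2 1.74-fold lower (log2 -0.80 ± 0.28, edgeR adjusted p = 0.0236). Both collagen calls turned on single libraries. Without Suz12 KO replicate 3, the values were -0.33 for Col4a1 and -0.36 for Col4a2 (edgeR adjusted p = 0.208 and 0.298). The Col4a1 call was also lost without replicate 3 of the full non-core KO (-0.55, edgeR adjusted p = 0.07) and the Col4a2 call without its replicate 2 (-0.76, edgeR adjusted p = 0.0672). Lamc1 was not called (0.23 ± 0.12, edgeR adjusted p = 0.132) but was without replicate 3 of the full non-core KO, its low library (0.41, edgeR adjusted p = 0.0031).

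**Figure D3:**
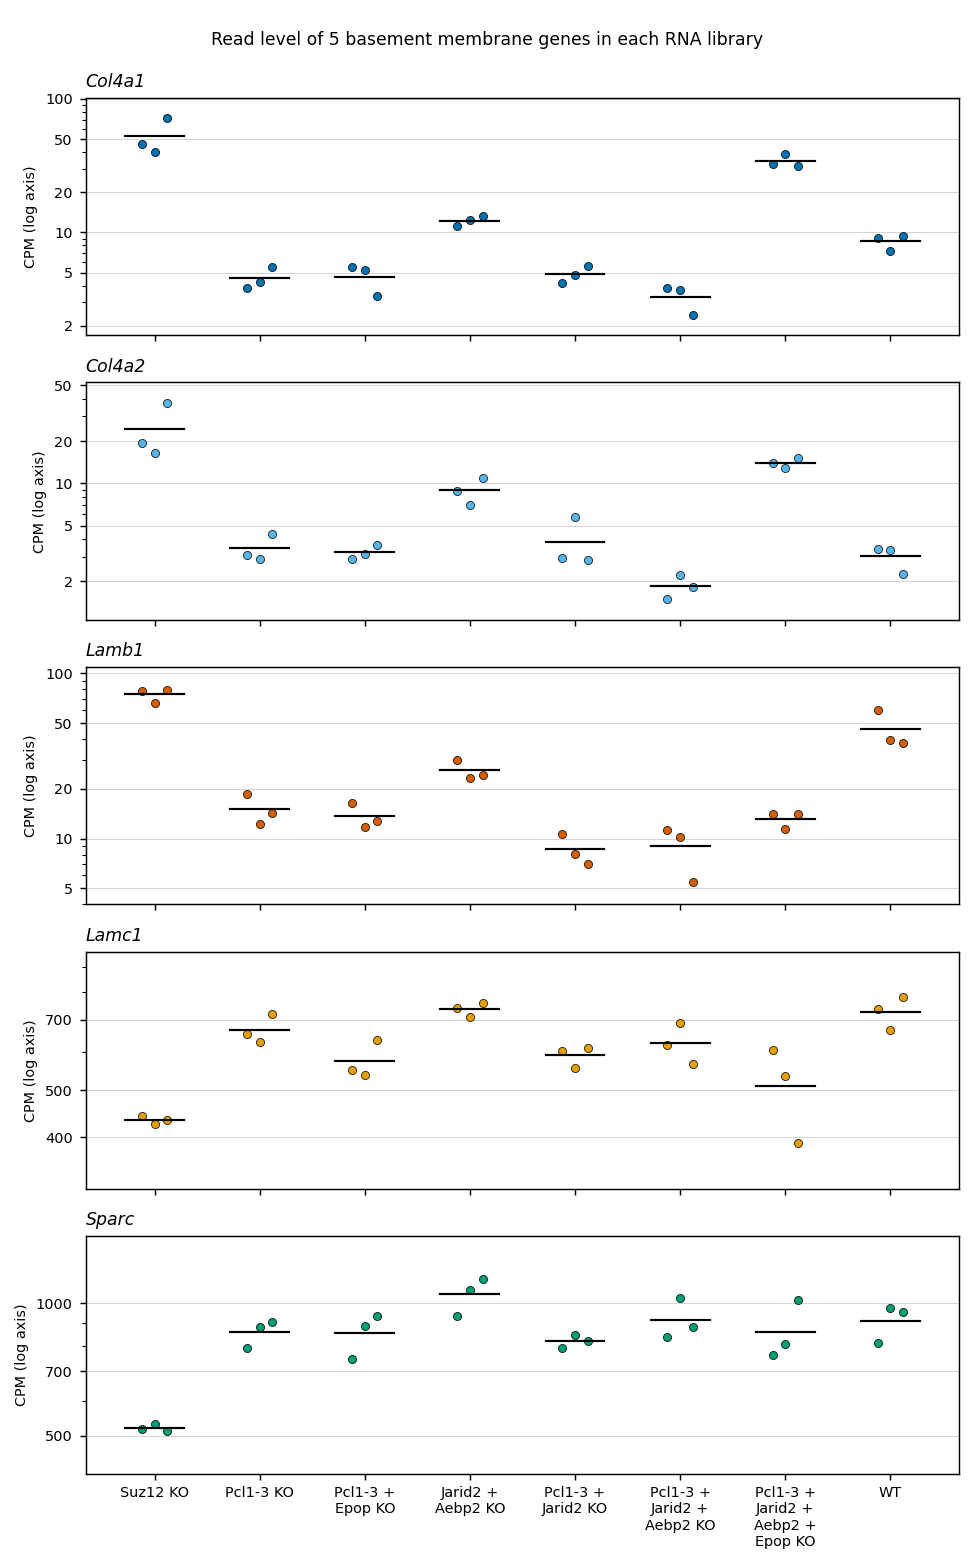
Read level (CPM, log axis) of the 5 genes in each of the 24 RNA libraries; each dot is 1 library and each bar the mean of 3. Col4a1 and Col4a2 are highest in Suz12 KO and in the full non-core KO, Lamb1 is highest in Suz12 KO and next in WT, and Sparc is lowest in Suz12 KO.

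Lamb1 was also lower than WT in each of the other 5 knockouts. Its mean was 15.0 ± 3.30 CPM in Pcl1-3 KO, 13.6 ± 2.42 in Pcl1-3 + Epop KO, 25.9 ± 3.59 in Jarid2 + Aebp2 KO, 8.58 ± 1.86 in Pcl1-3 + Jarid2 KO and 8.99 ± 3.10 in Pcl1-3 + Jarid2 + Aebp2 KO, against 45.9 ± 12.1 CPM in WT. None of the libraries of these 5 knockouts reached the lowest WT library. The log2 fold changes were -1.61 ± 0.23 in Pcl1-3 KO (edgeR adjusted p = 0.000103), -1.75 ± 0.23 in Pcl1-3 + Epop KO (edgeR adjusted p = 5.71e-05), -2.42 ± 0.24 in Pcl1-3 + Jarid2 KO (edgeR adjusted p = 4.91e-07) and -2.34 ± 0.24 in Pcl1-3 + Jarid2 + Aebp2 KO (edgeR adjusted p = 5.95e-07). In Jarid2 + Aebp2 KO, the knockout that kept the PCL proteins, the difference was the smallest of the 5, at -0.83 ± 0.22 (edgeR adjusted p = 0.0359). That call was lost in 5 of the 6 fits that left out a library, each except the one without WT replicate 3, with values of -0.59 to -0.94 and edgeR adjusted p of 0.0535 to 0.244.

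Col4a1 was lower than WT in the 4 of these knockouts that lacked the PCL proteins. It had 3.81, 4.27 and 5.54 CPM in Pcl1-3 KO, 5.48, 5.21 and 3.35 in Pcl1-3 + Epop KO, 4.17, 4.82 and 5.58 in Pcl1-3 + Jarid2 KO and 3.85, 3.68 and 2.41 in Pcl1-3 + Jarid2 + Aebp2 KO, against 9.06, 7.24 and 9.39 CPM in WT. All 12 of these knockout libraries lay below the lowest WT library. The lowest level was that of Pcl1-3 + Jarid2 + Aebp2 KO, 2.57-fold below WT (log2 -1.36 ± 0.24, edgeR adjusted p = 0.000446), a call that held in every alternative. The other 3 were -0.89 ± 0.23 (edgeR adjusted p = 0.0176), -0.87 ± 0.23 (edgeR adjusted p = 0.0247) and -0.82 ± 0.23 (edgeR adjusted p = 0.0174) in the order above. Each of these 3 calls was lost without WT replicate 1 or WT replicate 3, and with 1 or 2 of the knockout libraries left out: without replicate 1 in Pcl1-3 KO (-0.79, edgeR adjusted p = 0.0832), without replicate 3 in Pcl1-3 + Epop KO (-0.68, edgeR adjusted p = 0.149, and likewise in a fit of that knockout and WT alone, -0.87, edgeR adjusted p = 0.146), and without replicate 1 or 2 in Pcl1-3 + Jarid2 KO (-0.72 and -0.81, edgeR adjusted p = 0.0731 and 0.0522). Without WT replicate 1 they were -0.86, -0.83 and -0.78, and without WT replicate 3 they were -0.83, -0.81 and -0.75, with edgeR adjusted p of 0.0603 to 0.0902. In Jarid2 + Aebp2 KO the level was 12.2 ± 1.01 CPM, above all WT libraries but not called (log2 0.51 ± 0.22, edgeR adjusted p = 0.179).

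Col4a2 was higher in Jarid2 + Aebp2 KO and was not called in the other 4 of these knockouts. It had 8.75, 7.06 and 11 CPM in Jarid2 + Aebp2 KO against 3.41, 3.37 and 2.26 CPM in WT, a 2.98-fold difference (log2 1.58 ± 0.31, edgeR adjusted p = 0.00744). Without Jarid2 + Aebp2 KO replicate 3, its highest library, the value was 1.40 on the log2 scale (edgeR adjusted p = 0.0579). The level was 1.5, 2.23 and 1.83 CPM in Pcl1-3 + Jarid2 + Aebp2 KO, all below WT, yet this was not past the threshold (log2 -0.69 ± 0.34, edgeR adjusted p = 0.194) and rests on 21 to 31 reads per library. In Pcl1-3 KO, Pcl1-3 + Epop KO and Pcl1-3 + Jarid2 KO the level averaged 3.22 to 3.85 CPM and overlapped that in WT.

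Lamc1 and Sparc were not called in any of these 5 comparisons with WT. Lamc1 averaged 575 to 736 CPM in these knockouts, against 727 ± 58.1 CPM in WT, and the edgeR adjusted p was lowest in Pcl1-3 + Epop KO, at 0.0953 (log2 -0.34 ± 0.12), and in Pcl1-3 + Jarid2 KO, at 0.0984 (log2 -0.30 ± 0.12). No library of these 2 knockouts reached the lowest WT library. A fit with only Pcl1-3 + Jarid2 KO and WT called Lamc1 lower (-0.30, edgeR adjusted p = 0.013). Sparc averaged 820 to 1049 CPM, against 913 ± 87.5 CPM in WT, and libraries overlapped throughout. Each of the 5 comparisons thus had 2 of 5 genes called, where the share of all IDs called was 8.70% in Pcl1-3 KO, 7.61% in Pcl1-3 + Epop KO, 4.39% in Jarid2 + Aebp2 KO, 17.2% in Pcl1-3 + Jarid2 KO and 15.0% in Pcl1-3 + Jarid2 + Aebp2 KO. The median log2 fold change of the 5 genes in the same order was -0.12, -0.34, 0.20, -0.30 and -0.69, while that of all IDs was between 0 and 0.01.

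Losing Epop went with a large rise of the collagen genes where Jarid2 and Aebp2 had been lost with the PCL proteins, and with none that was called where only the PCL proteins had been. In the first setting, Col4a1 stood at 34.4 ± 3.91 CPM in the full non-core KO and at 3.31 ± 0.787 CPM in Pcl1-3 + Jarid2 + Aebp2 KO, a 10.3-fold rise (log2 3.37 ± 0.24, edgeR adjusted p = 1.21e-08). Col4a2 averaged 14.0 ± 1.17 CPM with Epop lost as well and 1.85 ± 0.370 CPM with Epop kept, a 7.52-fold rise (log2 2.91 ± 0.32, edgeR adjusted p = 3.75e-06). The lowest full non-core KO library was far above the highest Pcl1-3 + Jarid2 + Aebp2 KO library for both genes. These 2 of 5 genes were called where 11.2% of IDs were. Lamb1 had 13.2 ± 1.49 CPM in the full non-core KO and 8.99 ± 3.10 CPM in Pcl1-3 + Jarid2 + Aebp2 KO, which did not overlap but were not called (log2 0.54 ± 0.24, edgeR adjusted p = 0.155). Replicate numbers paired these libraries by the check used here, and with them as a block the Lamb1 difference was called (log2 0.56, edgeR adjusted p = 0.0216). Lamc1, at -0.30 ± 0.12 (edgeR adjusted p = 0.13), was called only without replicate 1 of the full non-core KO (-0.44, edgeR adjusted p = 0.0248), and Sparc was not called (-0.09 ± 0.12, edgeR adjusted p = 0.686).

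In the second setting, Pcl1-3 + Epop KO and Pcl1-3 KO had overlapping libraries for each of the 5 genes. Col4a1 averaged 4.68 ± 1.16 CPM in Pcl1-3 + Epop KO and 4.54 ± 0.899 CPM in Pcl1-3 KO, and Col4a2 averaged 3.22 ± 0.365 CPM in Pcl1-3 + Epop KO and 3.45 ± 0.783 CPM in Pcl1-3 KO. The log2 fold changes of the 5 genes ran from -0.22 ± 0.12 for Lamc1 to 0.02 ± 0.24 for Col4a1, and 0 of 5 genes were called, by edgeR or by DESeq2, or at an unadjusted edgeR p under 0.05. Among all IDs 1 was called by edgeR (0.00683%) and 3 by DESeq2. The share of all IDs with an unadjusted edgeR p under 0.05 was not worked out. The difference between the Epop effects in the 2 settings, tested as an interaction, was 3.34 ± 0.33 for Col4a1 (edgeR adjusted p = 4.16e-06) and 3.03 ± 0.45 for Col4a2 (edgeR adjusted p = 0.000499). It was called for these 2 of 5 genes and for 2.09% of IDs. Lamb1 (0.68 ± 0.33), Lamc1 (-0.08 ± 0.17) and Sparc (-0.08 ± 0.17) were not past the threshold.

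Losing the PCL proteins on top of Jarid2 and Aebp2 went with lower collagen and Lamb1 levels. Col4a1 had 3.85, 3.68 and 2.41 CPM in Pcl1-3 + Jarid2 + Aebp2 KO and 11.2, 12.3 and 13.3 CPM in Jarid2 + Aebp2 KO, a 3.67-fold fall (log2 -1.88 ± 0.23, edgeR adjusted p = 1.09e-05). Col4a2 fell 4.80-fold (log2 -2.26 ± 0.32, edgeR adjusted p = 5.2e-05) and Lamb1 2.86-fold (log2 -1.52 ± 0.23, edgeR adjusted p = 0.000125). No library of the first genotype overlapped one of the second for these 3 genes. They are 3 of 5, where 13.7% of IDs were called. Set beside the loss of the PCL proteins alone, in Pcl1-3 KO against WT, the effect differed for Col4a2, by -2.49 ± 0.45 on the log2 scale (edgeR adjusted p = 0.00279), which was 1 of 5 genes and 7.36% of IDs. For Col4a1 the difference was -0.98 ± 0.33 and not past the threshold (edgeR adjusted p = 0.0678), but it was past it without the filter on low counts (-1.01, edgeR adjusted p = 0.0275) and by DESeq2 (-0.98, adjusted p = 0.0446). For Lamb1 the interaction was 0.10 ± 0.32 (edgeR adjusted p = 0.89), with a fall of 1.52 on the log2 scale in the one setting and of 1.61 in the other.

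With Jarid2 lost on top of the PCL proteins Lamb1 was lower and the other 4 genes were not called, and with Aebp2 lost as well no further difference was called. Lamb1 had 10.7, 8.05 and 7.04 CPM in Pcl1-3 + Jarid2 KO and 18.7, 12.2 and 14.2 CPM in Pcl1-3 KO, a 1.75-fold difference (log2 -0.80 ± 0.23, edgeR adjusted p = 0.0431). This was 1 of 5 genes where 6.27% of IDs were called. The call was lost in 4 fits that left out a library, without replicate 2 or 3 of Pcl1-3 + Jarid2 KO (-0.76 and -0.68) or replicate 1 or 3 of Pcl1-3 KO (-0.63 and -0.84), with edgeR adjusted p of 0.0831 to 0.235, and in the fit with only these 2 genotypes (-0.80, edgeR adjusted p = 0.0605). Pcl1-3 + Jarid2 + Aebp2 KO against Pcl1-3 + Jarid2 KO gave 0 of 5 by edgeR, against 0.901% of all IDs. By DESeq2 it also gave 0 of 5, against 242 of 14650 IDs. An unadjusted edgeR p under 0.05 was reached by 2 of 5, and the share of all IDs reaching it was not worked out. The largest difference there was that of Col4a2, at 1.85 ± 0.370 CPM in Pcl1-3 + Jarid2 + Aebp2 KO and 3.85 ± 1.63 CPM in Pcl1-3 + Jarid2 KO (log2 -1.04 ± 0.33, edgeR adjusted p = 0.199), which was called without the filter on low counts (-1.03, edgeR adjusted p = 0.032).

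In order of mean level, the collagen genes began alike, with Suz12 KO, the full non-core KO and Jarid2 + Aebp2 KO as the top 3 and no overlap between neighbours among them. Below these Col4a1 continued with WT and then the 4 lower knockouts, whose neighbours overlapped one another. For Col4a2 the order went on with Pcl1-3 + Jarid2 KO, Pcl1-3 KO, Pcl1-3 + Epop KO and WT, all overlapping their neighbours, and ended with Pcl1-3 + Jarid2 + Aebp2 KO. For Lamb1 the order was Suz12 KO, WT, Jarid2 + Aebp2 KO and then the 5 knockouts of the PCL proteins. Lamc1 and Sparc were highest in Jarid2 + Aebp2 KO and lowest in Suz12 KO. Neighbours in these 2 orders overlapped throughout, except that Sparc in Suz12 KO lay below every other library. The highest genotype mean was 15.9 times the lowest for Col4a1, 13.1 times for Col4a2 and 8.69 times for Lamb1, but 1.70 times for Lamc1 and 2.01 times for Sparc.

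Over the 24 libraries, which fall into genotype groups and share those groups' differences, log2 CPM of Col4a1 and Col4a2 had a Pearson r of 0.93 and a Spearman rho of 0.81. Among the 14649 other IDs, Col4a1 ranked 1st in likeness to Col4a2 by Pearson r, and Col4a2 ranked 2nd in likeness to Col4a1. Lamc1 and Sparc had an r of 0.64, which put Sparc at rank 945 for Lamc1. The laminin partners Lamb1 and Lamc1 had an r of -0.14, and Lamb1 was closer to Col4a1, with an r of 0.63. Reads of overlapping genes may be among the counts, since the sources used here do not say whether counting used the strand. Col4a1 overlaps the lncRNAs Gm15418 and Gm32709, Col4a2 overlaps the lncRNA Gm46030, and Lamc1 overlaps the pseudogene Gm8818, with 12337, 24712, 18344 and 1336 bp in common. Their part in the levels was not tested.

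Ratios of partner chains were taken within each library, where library scaling cancels out. Lamb1 to Lamc1 had a log2 ratio of -2.55 ± 0.12 in Suz12 KO and -4.01 ± 0.37 in WT, a difference of 1.47. In the other 6 knockouts the ratio was below that of WT, by 0.83 in Jarid2 + Aebp2 KO (-4.84 ± 0.19) up to 2.17 in Pcl1-3 + Jarid2 + Aebp2 KO (-6.19 ± 0.47) on the log2 scale. No knockout library overlapped WT in any of the 7 comparisons, and each gave 0.1 in a two-sided exact permutation test, the smallest p that 3 against 3 libraries allow, so that none could reach 0.05.

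**Figure D4:**
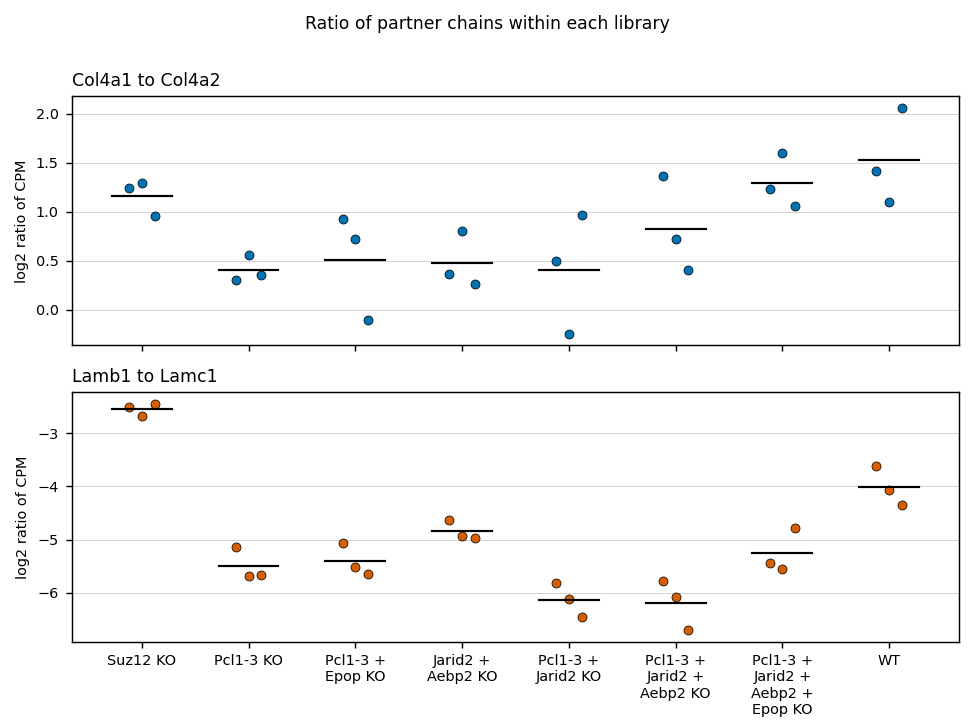
Log2 ratio of the CPM of Col4a1 to Col4a2 and of Lamb1 to Lamc1 in each library; dots are libraries and bars the means of 3. The Lamb1 to Lamc1 ratio is highest in Suz12 KO, at -2.55 against -4.01 in WT, and below WT in the other 6 knockouts.

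The ratio of the collagen partners overlapped that of WT where both genes rose. The log2 ratio of Col4a1 to Col4a2 was 1.16 ± 0.19 in Suz12 KO and 1.30 ± 0.27 in the full non-core KO, overlapping the 1.52 ± 0.49 of WT (exact permutation p = 0.4 and 0.6). It was 0.40 ± 0.14 in Pcl1-3 KO, 0.51 ± 0.55 in Pcl1-3 + Epop KO, 0.47 ± 0.28 in Jarid2 + Aebp2 KO and 0.41 ± 0.61 in Pcl1-3 + Jarid2 KO, each without overlap with WT and each at the smallest exact permutation p of 0.1. In Pcl1-3 + Jarid2 + Aebp2 KO it was 0.83 ± 0.49 (exact permutation p = 0.2). Adjusted over the 14 ratio comparisons, the exact permutation p of 0.1 became 0.127.

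Other genes of the same matrix were looked up near the peaks. Their counts stand against 24.2% of all protein-coding genes for SUZ12, 14.3% for JARID2 and 42.0% for PCL2, or 35.3%, 21.5% and 58.9% of the genes at least as long as Sparc, and none was tested. Of 29 further basement membrane genes, 12 had a SUZ12 peak within 1 kb, 9 a JARID2 peak and 20 a PCL2 peak, and 9 had all 3. The 12 of 29 for SUZ12 lie near the share of long genes, though some listed genes, such as Lamb2 and Tinagl1, are shorter than Sparc. Nid1, whose nidogen links laminin to type IV collagen, Pxdn, the peroxidase that crosslinks type IV collagen, and Lamc3, another laminin gamma chain, were among those with all 3. Lama1, whose alpha-1 chain pairs with the chains of Lamb1 and Lamc1, had a PCL2 peak alone, as Lamc1 did. Hspg2 (perlecan), Nid2 and Lamb2 had none, as Sparc. Of 23 genes for collagen folding and crosslinking, 15 had a SUZ12 peak, 6 a JARID2 peak, near the share of long genes, and 17 a PCL2 peak. Of 13 receptors for basement membranes the counts were 6, 1 and 12, with Itga7, a laminin-binding integrin chain, as the one with JARID2. Of 16 further parietal endoderm markers they were 7, 5 and 13, and of 13 regulators of primitive endoderm, the lineage from which parietal endoderm comes, 10, 9 and 11.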

How the data were processed

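For each of 24 RNA libraries the authors deposited a file of raw counts, a whole number for every Ensembl ID. For RNA, the tools listed in the submitters' processing notes are STAR and HTSeq, and for the chromatin immunoprecipitations Trimmomatic and Bowtie2, with mm10 as the build of both. The sources used here do not give versions, strandedness, the peak caller, its threshold or any pooling. The other deposited values are positions in base pairs: 7796 SUZ12, 4991 JARID2 and 20003 PCL2 peaks, with no scores. The 63 chromatin samples have no signal analysed here.

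The count test was that of edgeR 4.0.16 (R 4.3.3). The 14650 IDs of 55450 that filterByExpr kept were scaled by TMM, the trimmed mean of log ratios, and entered 1 fit of all 24 libraries and 8 genotype means (glmQLFit, robust, and glmQLFTest). Their p-values were adjusted over all IDs tested (Benjamini-Hochberg, threshold 0.05). The SE of a log2 fold change was worked back from the test, as its absolute value divided by the square root of the F statistic. CPM are relative to TMM-scaled totals of the tested IDs, and log2 CPM used a prior count of 2. The 15 comparisons were 13 of pairs of genotypes and 2 differences of effects. The script was tested on simulated data. Alternatives were RLE size factors, no count filter, the replicate number as a block, only the genotypes compared, DESeq2 1.42.0, and each library left out in turn; for ratios, 0.5 CPM added to both genes; for peaks, other distances, widths and overlaps. No scaling moved the median of all IDs by over 0.1 (log2).

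Whether equal replicate numbers pair libraries was read from the correlation of their deviations from genotype means. It was over 0.1 for every pair in 8 of the 15 comparisons and not in the other 7 (range over all pairs 0.03 to 0.71). All of these correlations were above 0, and the main test took no account of replicate number. With it as a block, more IDs were called in every comparison. In Jarid2 + Aebp2 KO against WT, 2281 IDs were called with the block and 643 without. In Suz12 KO against WT the counts were 7259 and 5721.

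A gene was near a peak when the peak shared at least 1 bp with its span widened by 1 kb, in the RefSeq table of GRCm38.p6; 4 of the 5 genes matched a promoter window there, and Lamc1 had none. The 5 genes, the gene lists and the tests were chosen with earlier results of these data known. The rule for named genes took the 5 genes and, where IDs could be paired with symbols, genes of the fixed lists and the genes most like each; only the 5 were paired here, so the 13 other lists were used on the peaks alone.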

Additional observations from a re-analysis of the deposited data

Results flagged for a closer look

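The effect of losing Epop differed between the 2 settings for both collagen genes, by a test of the difference itself. Col4a1 was 10.3-fold higher in the full non-core KO than in Pcl1-3 + Jarid2 + Aebp2 KO and 1.02-fold higher in Pcl1-3 + Epop KO than in Pcl1-3 KO, a difference of 3.34 ± 0.33 on the log2 scale (SE; edgeR adjusted p = 4.16e-06). Col4a2 differed by 3.03 ± 0.45 (edgeR adjusted p = 0.000499). All 3 libraries of the full non-core KO were above all 3 of Pcl1-3 + Jarid2 + Aebp2 KO for both genes, while those of Pcl1-3 + Epop KO overlapped those of Pcl1-3 KO.

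The effect of losing the PCL proteins also differed for Col4a2. It was -2.26 ± 0.32 on the log2 scale in Pcl1-3 + Jarid2 + Aebp2 KO against Jarid2 + Aebp2 KO and 0.23 ± 0.32 in Pcl1-3 KO against WT, a difference of -2.49 ± 0.45 (edgeR adjusted p = 0.00279). Col4a2 had 31 to 35 reads per WT library and 21 to 31 per Pcl1-3 + Jarid2 + Aebp2 KO library.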

How the results depend on the processing

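Of 32 calls among 75 tests of a gene in a comparison, 23 held in every alternative and 9 were lost in at least 1; none of the 32 reversed. The number of the 5 genes called changed by more than 1.5 times in these settings. Without the count filter it was 1 for Pcl1-3 + Jarid2 + Aebp2 KO against Pcl1-3 + Jarid2 KO (0 as reported). There 391 of 31394 IDs were called, against 132 of 14650 as reported. Without the filter it was 2 for the difference of the Pcl1-3 loss effect (1 as reported), with 1696 of 31394 IDs called. That count was also 2 by DESeq2 and 2 with the replicate block, with 1580 and 2745 of 14650 IDs called (1078 as reported). With only the genotypes compared it was 1 for Pcl1-3 + Epop KO against WT (2 as reported). Col4a1 stood at -0.87 there (edgeR adjusted p = 0.146), and 155 of 12803 IDs were called (1115 of 14650 as reported). In the same setting it was 0 for Pcl1-3 + Jarid2 KO against Pcl1-3 KO (1 as reported). There 709 of 13073 IDs were called (918 of 14650 as reported). Leaving out each library in turn gave 1 to 2 for Pcl1-3 KO, Pcl1-3 + Epop KO and Pcl1-3 + Jarid2 KO against WT, 0 to 2 for Jarid2 + Aebp2 KO against WT, 2 to 4 for the full non-core KO against Suz12 KO and 0 to 1 for Pcl1-3 + Jarid2 KO against Pcl1-3 KO. The IDs called, of 14892 to 15125 tested, moved as well. In the same order they ran from 463 to 1514 (1274 as reported), 462 to 1831 (1115) and 1436 to 2091 (2516) against WT. For Jarid2 + Aebp2 KO against WT they ran from 82 to 807 (643). Against Suz12 KO they ran from 5488 to 6373 (6294), and against Pcl1-3 KO from 414 to 952 (918). The cause of these changes was not tested.

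The replicate block brought 3 differences past the threshold and lost none. One was Lamb1 in the full non-core KO against Pcl1-3 + Jarid2 + Aebp2 KO (0.56). The others were in comparisons that the check did not count as paired. They were Lamc1 in Pcl1-3 + Epop KO against WT (-0.34, edgeR adjusted p = 0.0486) and Col4a1 in the difference of the Pcl1-3 loss effect (-0.97, edgeR adjusted p = 0.0391).

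Among the log2 fold changes, directions changed only for uncalled differences. The largest of these as reported was that of Col4a2 in Pcl1-3 + Jarid2 KO against WT, at 0.35, which was -0.04 without replicate 2 of that knockout. Sparc in Pcl1-3 + Jarid2 + Aebp2 KO against WT was -0.02 with RLE size factors, -0.02 by DESeq2 and -0.01 with only the genotypes compared, and ran from -0.09 to 0.07 with a library left out. With a library left out, Pcl1-3 + Epop KO against Pcl1-3 KO ran from -0.11 to 0.21 for Col4a1, -0.24 to 0.10 for Col4a2, -0.29 to 0.04 for Lamb1 and -0.07 to 0.08 for Sparc. Pcl1-3 + Jarid2 KO against Pcl1-3 KO ran from -0.05 to 0.26 for Col4a1 and -0.27 to 0.35 for Col4a2, and Col4a2 against WT ran from -0.09 to 0.20 in Pcl1-3 + Epop KO and -0.04 to 0.53 in Pcl1-3 + Jarid2 KO. Lamb1 ran from -0.12 to 0.33 in Pcl1-3 + Jarid2 + Aebp2 KO against Pcl1-3 + Jarid2 KO and from -0.14 to 0.35 in the difference of the Pcl1-3 loss effect. Lamc1 ran from -0.04 to 0.06 in Jarid2 + Aebp2 KO against WT and from -0.22 to 0.08 in the difference of the Epop loss effect. Sparc ran from -0.22 to 0.01 in that difference and from -0.23 to 0 in the full non-core KO against Pcl1-3 + Jarid2 + Aebp2 KO. The 14 ratio differences moved by less than 1 SD, taken as the root mean square of the SDs of both genotypes, though some moved by more than the SD of the knockout alone. Without WT replicate 3 the Col4a1 to Col4a2 ratio difference was 0.04 in the full non-core KO (-0.23 as reported) and -0.09 in Suz12 KO (-0.36 as reported). Peak counts were within 1.5 times those reported, and the Lamc1 peak of PCL2 (766 bp) was lost when peaks under 1 kb were left out. Col4a2, with 21 to 600 reads per library, had the largest standard errors.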

Other observations

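The peaks were also looked up near genes of cell types other than parietal endoderm, within the same 1 kb. Trophoblast markers such as Cdx2, a regulator of that lineage, had SUZ12, JARID2 and PCL2 peaks near 8, 7 and 8 of 11 genes, and retinoic acid response genes near 9, 6 and 11 of 11. TGF-beta and SMAD targets had them near 8, 7 and 10 of 13 matched genes (of 15 listed). Naive pluripotency markers had them near 2, 1 and 5 of 15, and visceral endoderm markers near 2, 2 and 4 of 12. Fibroblast and feeder markers had them near 5, 6 and 8 of 17, endothelial and blood markers near 5, 4 and 6 of 12, and the targeted PRC2 genes near 1, 2 and 4 of 7. Over all protein-coding genes the shares were 24.2% for SUZ12, 14.3% for JARID2 and 42.0% for PCL2. No test of these counts was made.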
